A study of Mus musculus with 16 samples.

Results

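The last step of FOXA2 level in mouse neural tube organoids was the one between the medium and the high FOXA2 gate, and 8 of the 16 libraries of the series belong to it, 4 from the high gate and 4 from the medium gate. The members were chosen by the FOXA2 level in the labels alone (high against medium), without any measured value. The cells derive from R1, a mouse embryonic stem cell line, all carry the genotype labelled FOXA2-Venus, and all groups had retinoic acid (RA, 18 hours) and were taken on day 4 of organoid culture. The series has 4 gates, negative, low, medium and high for FOXA2 expression, with 4 libraries each, and no group without the reporter or without RA is analysed here. The labels number the libraries of each gate 1 to 4 but do not say that they came from separate cultures, and the spread that the tests use may therefore be technical. A gate is a pool of cells of 1 reporter level from 1 cell line, so the values below are averages over whatever cell types a gate held.

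FOXA2 is a forkhead transcription factor that, in the ventral midline of the neural tube, is both induced by Sonic hedgehog and required to make the floor plate, a strip of glia-like cells that itself secretes Sonic hedgehog and the axon attractant netrin. Hedgehog signal spreading from there sets the order of ventral progenitors, while PAX, ZIC, IRX and WNT genes mark the intermediate and dorsal tube. FOXA2 is also needed in the notochord and the definitive endoderm, so genes of those tissues were read beside the neural ones.

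RNA was measured by BRB-seq, a bulk method that barcodes each sample early and counts the ends of transcripts. Total counts were 3268948 to 6517958 in the high gate and 5155331 to 7017046 in the medium gate. Levels are given as CPM, counts scaled to a common total of the genes kept and to the composition of each library. Because transcript ends are counted, they are not divided by gene length. Of 35976 genes in the table, 13891 had enough counts to be tested. A gene is called here when the edgeR quasi-likelihood test gave a Benjamini-Hochberg adjusted p under 0.05 over all 13891 genes. The cell type label, embryonic stem cells, names the source of the organoids, and its defining markers were near absent: Pou5f1 had 0 counts in the high gate and 2 in the medium gate, and Nanog averaged 0.742 ± 0.492 CPM in the high gate and 1.01 ± 0.348 CPM in the medium gate. The neural genes Sox1 and Sox2 and the motor neuron progenitor gene Olig2 are listed at 0 in all 16 libraries. Whether the counting of reads set these values was not tested, so they do not show that the genes were silent.

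One library of each gate stood apart from its group. On the first principal component of all 16 libraries, which held 28.8% of the variance, the high libraries lay between 32.56 and 38.47, and the medium libraries at 14.3, 22.03, 9.116 and 9.004 for medium 1 to 4, so medium 2 lay nearest to the high gate. Medium 2 was also alone among the medium libraries on the third component, at 36.51 against -21.68 to -15.01 for the other 3, and high 2 was far out on the second, at 36.52 against 2.094 to 11.34. Without medium 2 the counts of called genes became 112 higher and 121 lower. The share of counts from 13 mitochondrial genes was 2.05 ± 0.162% in the high gate and 1.88 ± 0.341% in the medium gate (SD, n = 4 each), and an exact two-sided permutation test gave p = 0.371, with 0.0286 the smallest p that 4 against 4 can give.

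Between these gates 127 genes were called, 0.914% of those tested: 51 were higher in the high gate (0.367%) and 76 were lower (0.547%). Among the genes that rose were Foxa2 itself, its neighbouring noncoding RNA, the thyroxine carrier gene Ttr, the carbonic anhydrase gene Car4, the matrix genes Vtn and Smoc2, the keratin gene Krt19 and the ventral homeobox gene Nkx2-9. Among the genes that fell were the neural progenitor and dorsal tube genes Hes5, Hes3, Pax6, Pax7 and Zic1 and the WNT inhibitor genes Sfrp5 and Sfrp2. A change over 2-fold was reached by 18 of the 51 and by 39 of the 76 genes, the median size over all called genes being 0.96 on the log2 scale. Without overlap between the 4 high and the 4 medium libraries were 48 of the 51 higher and 69 of the 76 lower genes, while 5.37% of all genes tested had no overlap (2.93% higher and 2.44% lower). The calls were made on these same libraries, so this separation is no further support for them. When all libraries were thinned to the smallest total, 27 of the 75 called genes that were followed by name lost their calls, with adjusted p of 0.0531 to 0.421. Those that rose were Cadps, Cdkn1c, Cldn6, Cxcl12, Dkk3, Grb10, Igf1, Kif26b, Ntn1, Ntng1 and Upp1. Those that fell were Cbs, Cdh2, Cdh6, Cp, Epha7, Fabp7, Gap43, Msx3, Nrcam, Rxrg, Spsb4, Tfap2c, Ung, Wnt1, Zeb2 and Zic4. When only the 2 gates were fitted, Arid3c, Cdh2, Fabp7, Fgf15, Gap43, Grb10, Syn1, Ung, Upp1 and Zeb2 lost theirs (adjusted p of 0.0599 to 0.122). That fit also called Fst, Sp5 and Spon1 higher and Hoxd3 lower (adjusted p of 0.00679 to 0.0415), which the fit of all 16 libraries did not. DESeq2 called 7 genes followed by name that edgeR did not, Cdh1, Col2a1, Fst, Hoxd3, Krt15, Pax3 and Spon1 (adjusted p of 0.00275 to 0.0416), and the unfiltered table called 13. In bulk samples a higher share of cells of a type and more RNA per cell cannot be told apart, which holds for every gene below.

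**Figure D1:**
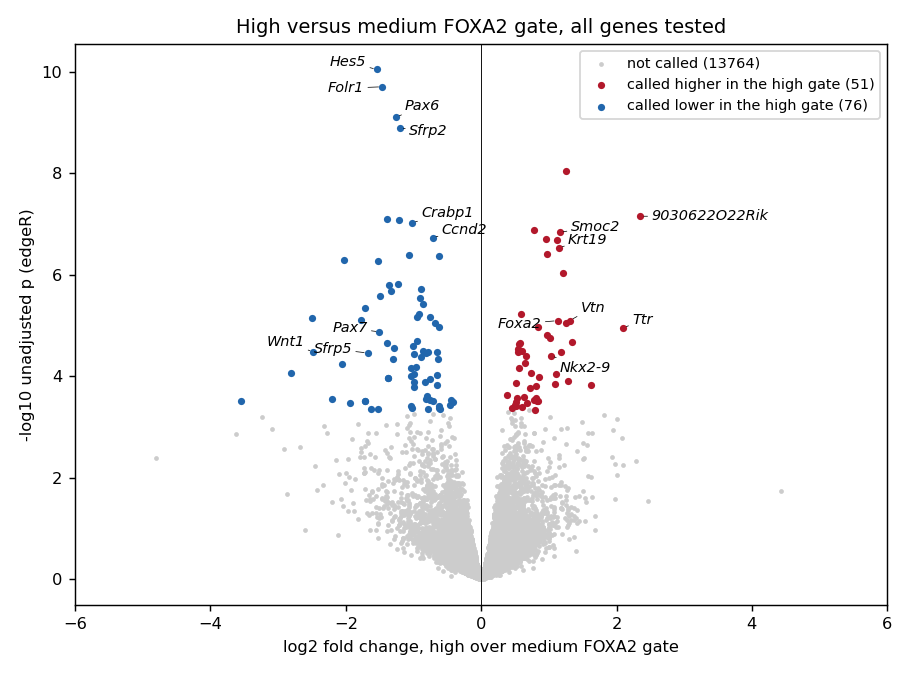
Each point is 1 of the 13891 genes tested, with the log2 fold change of high over medium on the x axis and -log10 of the unadjusted edgeR p on the y axis. Red points are the 51 genes called higher and blue points the 76 called lower in the high gate, and Hes5 and Folr1 have the smallest p-values.

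The gates are labelled by FOXA2 expression, so the Foxa2 transcript checks the labels and is not a finding. Foxa2 had 110.4, 103, 140.0 and 101 CPM in high 1 to 4, against 55.9, 60.03, 38.5 and 53.4 CPM in medium 1 to 4. No medium library reached the lowest high library (log2 fold change 1.13, SE 0.20, adjusted p = 0.00301). Over the whole range it averaged 2.91, 11.9, 51.96 and 113 CPM in the negative, low, medium and high gates, which is the order of the labels.

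A noncoding RNA beside Foxa2 had the largest fold change of any gene called higher. The lncRNA gene 9030622O22Rik lies on chromosome 2 of GRCm38, chr2:147944459-148040513 on the minus strand, and its end nearest to Foxa2 (chr2:148042877-148046969) is 2363 bases away. It had 47.9, 47.3, 41.5 and 48.1 CPM in high 1 to 4, against 3.94, 12.9, 8.12 and 10.8 CPM in medium 1 to 4. All 4 high libraries were more than 3 times above the highest medium library (log2 fold change 2.35, SE 0.30, adjusted p = 0.000145). Named after its values were seen, since gene models without a name fall outside the naming rule, it averaged 0.409, 0.947, 8.92 and 46.2 CPM in the negative, low, medium and high gates.

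Promoter sequences of RefSeq (GRCm38.p6, 250 bases before to 50 after each start) were found for 36 of the 51 genes called higher, for 50 of the 76 called lower and for 10467 of all 13891. They were searched on both strands for forkhead words (TGTTTAC or TATTTAC), a GLI word (GACCACCCA) and TCF/LEF words (CTTTGAT or CTTTGAA). The 3 stretches below are shown because each lies at a start of a gene that rose, with the word in capitals: the forkhead word at the noncoding neighbour of Foxa2, and the TCF/LEF words at the chemokine gene Cxcl12 and the kinesin gene Kif26b. All are written 5' to 3' on the strand of the gene, and the words of 9030622O22Rik and Cxcl12 lie on the opposite strand, so that they read here as reverse complements.
9030622O22Rik, chr2:148040436-148040542, minus strand: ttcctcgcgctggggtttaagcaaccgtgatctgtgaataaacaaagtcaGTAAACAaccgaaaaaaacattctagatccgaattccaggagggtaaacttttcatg
Cxcl12, chr6:117168322-117168428, plus strand: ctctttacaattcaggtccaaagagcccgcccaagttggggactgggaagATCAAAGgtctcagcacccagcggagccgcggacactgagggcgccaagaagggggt
Kif26b, chr1:178529065-178529124, plus strand: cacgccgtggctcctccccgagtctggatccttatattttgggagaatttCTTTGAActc
The word at 9030622O22Rik sits among many alternative starts of that gene, 117 bases before one of them and 24 bases after the outermost. A forkhead word was held by 1 of the 36 higher genes (2.78%), 2 of the 50 lower genes (4%) and 492 of the 10467 tested genes with a window (4.7%). The GLI word was in none of the 36 or the 50, and in 0.287% of all. TCF/LEF words were held by 9 of the 36 higher genes (25%), which are Acot1, Cxcl12, Elmo1, Emb, Foxa2, Foxp1, Igf1, Kif26b and Zfp503, by 3 of the 50 lower genes (6%) and by 7.02% of all. Some genes have several windows, and counted per window the TCF/LEF shares were 12.5% of higher, 3.61% of lower and 5.89% of all windows. The forkhead shares per window were 30.6% of higher, 2.41% of lower and 4.06% of all windows, and all 22 higher windows with the word belong to 9030622O22Rik. These are matches of letters, given as a description with no test, and say nothing of whether a factor binds.

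Of 17 floor plate genes listed, 13 were tested, 3 were called higher and none lower. These were Foxa2, Ntn1 and Cmtm8, and the median log2 fold change of the 13 was 0.42, against 0.0011 over all genes tested. Without Foxa2, on which the gates were set, 2 of 12 were higher and the median was 0.36. Cmtm8, which encodes a MARVEL-domain membrane protein, had 110.1, 106, 115 and 119 CPM in high 1 to 4, against 67.7, 67.3, 37.5 and 60.2 CPM in medium 1 to 4. For Cmtm8 the log2 fold change was 0.95 (SE 0.14, adjusted p = 0.000205). Ntn1, the gene of the axon attractant netrin-1, had 25.6, 26.1, 24.7 and 36.5 CPM in high 1 to 4, against 10.6, 19.3, 18.3 and 13.3 CPM in medium 1 to 4. For Ntn1 the log2 fold change was 0.86 (SE 0.19, adjusted p = 0.0182). High 4 was well above the other high libraries for Ntn1, though all 4 exceeded the medium gate, and the call was lost without high 4, medium 1 or medium 4 (adjusted p of up to 0.114). Spon1, which encodes the secreted floor plate protein F-spondin, had 30.6, 26.1, 27.9 and 29.2 CPM in high 1 to 4, against 20.3, 14.2, 16.9 and 18.6 CPM in medium 1 to 4, with no overlap, and missed the threshold (log2 fold change 0.70, SE 0.18, adjusted p = 0.0505). Spon1 was called in DESeq2 (adjusted p = 0.0149), when only the 2 gates were fitted (adjusted p = 0.0415) and in the unfiltered table (adjusted p = 0.0444). The homeobox gene Nkx6-1 averaged 15.4 ± 8.98 CPM in the high gate and 6.73 ± 0.665 CPM in the medium gate (SD, n = 4 each), with high 1, high 3 and high 4 above the medium range and high 2 inside it (adjusted p = 0.226). Nkx6-1 was called higher in the unfiltered table (adjusted p = 0.00293). The related forkhead gene Foxa1 averaged 9.23 ± 1.302 CPM in the high gate and 6.88 ± 2.63 CPM in the medium gate, and its groups overlapped (adjusted p = 0.822). Too few counts kept Shh, the Sonic hedgehog gene, from the test: 26 counts were summed over the high gate and 16 over the medium gate. Shh had 1.497, 1.26, 1.08 and 1.52 CPM in high 1 to 4, against 0.787, 0.3298, 0.864 and 0.708 CPM in medium 1 to 4, low levels that did not overlap. Spon2 had 22 counts in the high gate and 10 in the medium gate, and Ferd3l none in either.

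Of the ventral progenitor genes 4 of 10 were tested, and Nkx2-9 was the only one called. This homeobox gene of the most ventral progenitors, a known hedgehog target, had 160.0, 217, 171 and 123 CPM in high 1 to 4, against 84.2, 104, 68.97 and 71.5 CPM in medium 1 to 4. The lowest high library exceeded the highest medium library (log2 fold change 1.03, SE 0.19, adjusted p = 0.00854), and the call was lost without medium 3 (adjusted p = 0.0528). Nkx2-2 had 2 counts in the high gate and 10 in the medium gate.

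Among 6 hedgehog target genes tested, 1 rose, Ptch1, the gene of the hedgehog receptor that the signal itself induces. Ptch1 had 108, 142, 95.7 and 122 CPM in high 1 to 4, against 56.1, 99.1, 53.1 and 57.8 CPM in medium 1 to 4. Medium 2 stood inside the high range while the other 3 medium libraries lay at 53.1 to 57.8 CPM, so the groups overlapped (log2 fold change 0.81, SE 0.19, adjusted p = 0.0382). The Ptch1 call was lost without high 1, high 2, high 4, medium 1, medium 3 or medium 4 (adjusted p of up to 0.168). Gli1, the transcriptional activator of the pathway and a target of it, had 22.1, 20.5, 19.1 and 17.7 CPM in high 1 to 4, against 14.2, 16.8, 13.1 and 11.3 CPM in medium 1 to 4, which did not overlap but did not pass (adjusted p = 0.426). Hhip, the gene of a hedgehog-binding inhibitor, averaged 13.2 ± 3.14 CPM in the high gate and 6.99 ± 1.68 CPM in the medium gate (adjusted p = 0.537). The list's median log2 fold change was 0.52.

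Among 13 receptors and effectors of the hedgehog pathway, the only call was a lower one. Boc, which encodes a hedgehog co-receptor, had 11.1, 9.11, 8.63 and 14.9 CPM in high 1 to 4, against 20.1, 22.3, 29.2 and 28.6 CPM in medium 1 to 4. All high libraries were below all medium libraries (log2 fold change -1.22, SE 0.20, adjusted p = 0.00096). The pathway's transcription factor genes Gli2, at 14.7 ± 1.25 CPM in the high gate and 21.8 ± 5.06 CPM in the medium gate, and Gli3, at 25.6 ± 3.74 CPM in the high gate and 36.9 ± 10.8 CPM in the medium gate, were not called (adjusted p = 0.221 for Gli2 and 0.237 for Gli3). The list's median was -0.23, with 10 of the 13 members negative.

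**Figure D2:**
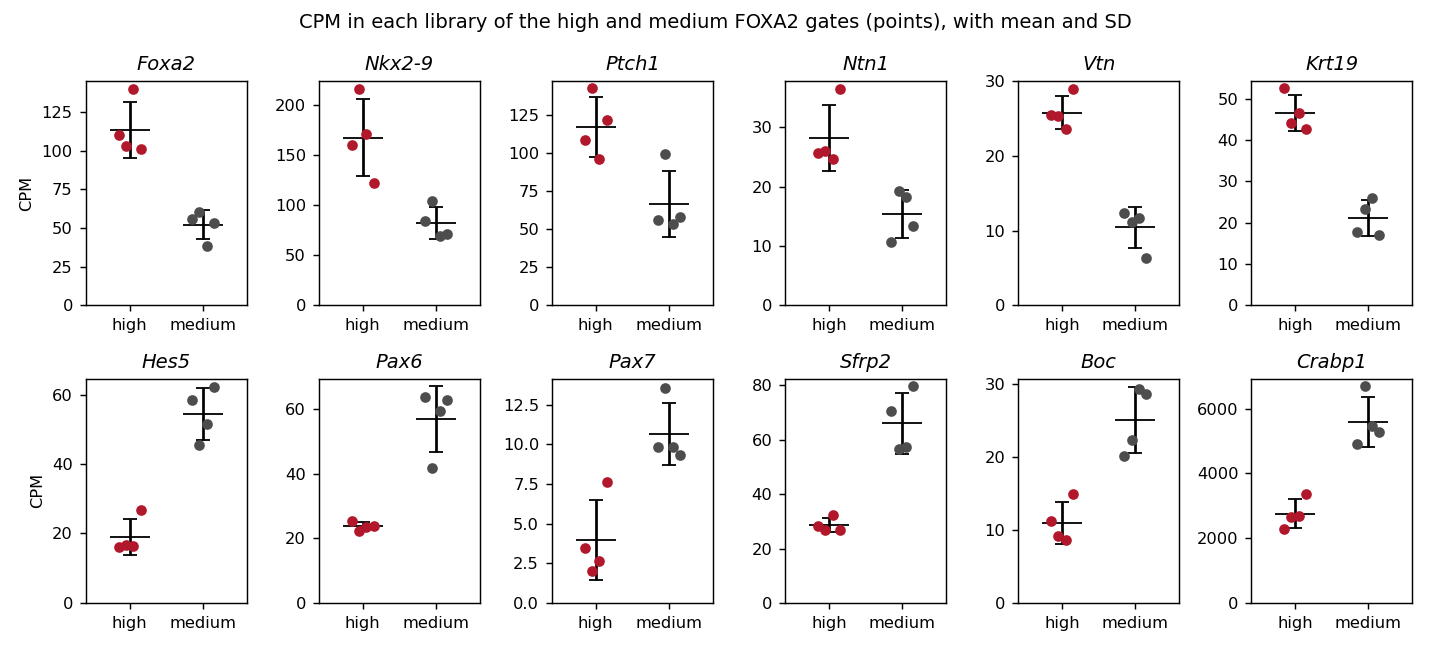
Points are CPM in each library, with the high gate left of the medium gate in every panel, and the bar and whiskers are the mean and SD of 4 libraries. The upper row holds genes called higher and the lower row genes called lower in the high gate, and among the 12 genes only the groups of Ptch1 overlap, through medium 2 at 99.1 CPM.

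Ttr, Car4, Vtn, Cobl and Elmo1 were among the 15 named genes with the largest called rises. Ttr, which encodes transthyretin, a carrier of thyroxine and retinol-binding protein made by visceral endoderm, liver and choroid plexus, had 9.64, 9.36, 12.5 and 12.2 CPM in high 1 to 4, against 3.35, 2.14, 1.56 and 3.12 CPM in medium 1 to 4. Its lowest high library was well above the highest medium library (log2 fold change 2.10, SE 0.40, adjusted p = 0.00369), and it averaged 0.0434, 0.297, 2.54 and 10.9 CPM in the negative, low, medium and high gates. Car4, the gene of a membrane-bound carbonic anhydrase, had 48.6, 63.99, 50.1 and 42.00 CPM in high 1 to 4, against 20.1, 22.4, 19.9 and 18.7 CPM in medium 1 to 4. For Car4 the log2 fold change was 1.34 (SE 0.25, adjusted p = 0.00614). Vtn, which encodes the adhesive glycoprotein vitronectin, known from the floor plate and notochord, had 25.4, 25.3, 23.6 and 28.9 CPM in high 1 to 4, against 12.4, 11.2, 11.8 and 6.37 CPM in medium 1 to 4. For Vtn the log2 fold change was 1.31 (SE 0.24, adjusted p = 0.00301). Medium 4 was the lowest library for Vtn, and the other 3 medium libraries lay close together. Cobl, the gene of an actin nucleator, averaged 49.6 ± 7.16 CPM in the high gate and 21.3 ± 7.67 CPM in the medium gate (log2 fold change 1.22, adjusted p = 0.000614). Elmo1, which encodes a partner of DOCK proteins in RAC activation, averaged 70.3 ± 10.3 CPM in the high gate and 32.02 ± 5.76 CPM in the medium gate (log2 fold change 1.12, adjusted p = 0.000205).

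Of 25 basement membrane and matrix genes tested, 3 were called higher and none lower: Vtn, Smoc2 and Smoc1. Smoc2, which encodes a calcium-binding matrix protein, had 46.1, 56.2, 40.1 and 45.7 CPM in high 1 to 4, against 18.7, 26.9, 17.98 and 20.3 CPM in medium 1 to 4. For Smoc2 the log2 fold change was 1.16 (SE 0.17, adjusted p = 0.000184). Its relative Smoc1, known to act on BMP signalling in the frog Xenopus, had 201, 201, 184 and 199 CPM in high 1 to 4, against 140.1, 152, 116 and 132 CPM in medium 1 to 4. For Smoc1 the log2 fold change was 0.54 (SE 0.11, adjusted p = 0.00772). Both sets of groups were clear of each other, and the Smoc1 call was lost without medium 3 (adjusted p = 0.0525). Over the 25 genes the summed level was 1880 to 2000 CPM in the high gate and 1550 to 1870 CPM in the medium gate, and the median log2 fold change was 0.14.

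Of 20 epithelial junction and keratin genes, 2 rose and 1 fell. Krt19, the gene of a simple-epithelium keratin, had 52.5, 44.3, 46.7 and 42.6 CPM in high 1 to 4, against 17.7, 23.3, 26.1 and 17.1 CPM in medium 1 to 4. For Krt19 the log2 fold change was 1.15 (SE 0.17, adjusted p = 0.000269). Cldn6, which encodes a tight-junction claudin of early epithelia, had 137, 158, 150.5 and 149 CPM in high 1 to 4, against 108, 93.01, 101 and 97.99 CPM in medium 1 to 4. For Cldn6 the log2 fold change was 0.57 (SE 0.11, adjusted p = 0.00626). Neither gene's groups overlapped. Cdh2, the gene of the neural cell adhesion molecule N-cadherin, was lower, at 78.1 ± 7.02 CPM in the high gate and 108 ± 16.4 CPM in the medium gate (log2 fold change -0.46, adjusted p = 0.0441), and lost its call without high 1, high 2, high 3, medium 2 or medium 4 (adjusted p of up to 0.197). Cdh1, the gene of epithelial E-cadherin, had 76.7, 76.9, 70.3 and 75.8 CPM in high 1 to 4, against 48.6, 66.96, 36.6 and 47.4 CPM in medium 1 to 4, which did not overlap but was not called (adjusted p = 0.0784). In all, the 20 genes summed to 1170 to 1300 CPM in the high gate and 972 to 1200 CPM in the medium gate, medium 2 being the highest of the 4 medium libraries.

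Markers of surface ectoderm were high in 1 library of the medium gate. Of 13 markers, 10 were tested, 1 was lower (Tfap2c, log2 fold change -0.92, SE 0.17, adjusted p = 0.00266) and none was higher, and the median of the 10 was 0.42. Summed over the list, high 1 to 4 had 206, 197, 191 and 186 CPM, and medium 1 to 4 had 123, 215, 110 and 145 CPM. Medium 2 was thus above every high library. For Krt7 too, medium 2 was inside the high range, with 40.9, 46.8, 34.8 and 27.7 CPM in high 1 to 4, against 17.7, 41.4, 16.1 and 19.97 CPM in medium 1 to 4 (adjusted p = 0.342). Itga6, the gene of a laminin receptor subunit, is not one of these 13 markers. Itga6 had 35.3, 25.04, 28.4 and 36.5 CPM in high 1 to 4, against 13.97, 29.8, 16.4 and 16.4 CPM in medium 1 to 4, again with medium 2 inside the high range (adjusted p = 0.148). Of the defining markers, Krt14 was at 0 counts in both gates, while Krt5 had 6 counts in the high gate and 13 in the medium gate. Without medium 2 the log2 fold change was 1.06 for Krt7 (adjusted p = 0.00357), 0.99 for Itga6 (adjusted p = 0.00487), 0.75 for Cdh1 (adjusted p = 0.0055) and 2.97 for the keratin gene Krt15 (adjusted p = 0.00475), all called higher. The part of surface ectoderm cells in the called genes was not tested.

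Of 22 endoderm genes, 14 were tested and 2 were called higher, Ttr and Cldn6. The endoderm regulator Sox17 had 154, 121, 134 and 128 CPM in high 1 to 4, against 126, 105, 71.2 and 145 CPM in medium 1 to 4, with overlap (adjusted p = 0.741). Gata6 had 44 counts in the high gate and 15 in the medium gate and Afp 29 and 11, too few to be tested, while Hnf4a had 0 counts in the high gate and 2 in the medium gate. Over the 22 genes the sum was 1680 to 1850 CPM in the high gate and 1490 to 1830 CPM in the medium gate. Of 19 notochord and axial mesoderm genes, 14 were tested and 2 were called higher, Krt19 and Vtn. The median log2 fold change was 0.24, with 11 members positive and 3 negative. Col2a1, a collagen gene, went the other way and was not called (log2 fold change -0.49, adjusted p = 0.0784). Col2a1 was called lower in DESeq2 (adjusted p = 0.0416), with a replicate block (adjusted p = 0.021), in the unfiltered table (adjusted p = 0.0159) and without medium 3 (adjusted p = 0.0381). T, the gene of the notochord factor brachyury, averaged 4.25 ± 2.73 CPM in the high gate and 2.48 ± 1.03 CPM in the medium gate (adjusted p = 0.693), and Noto, the notochord homeobox gene, had 0 counts in both gates. That list summed to 544 to 647 CPM in the high gate and 484 to 571 CPM in the medium gate. The part of endoderm or notochord cells in the called genes was not tested. Blood and endothelium markers were near 0, with sums of 3.08 to 6.39 CPM in the high gate and 4.39 to 7.78 CPM in the medium gate.

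Further named genes rose for which no list was drawn up. Cxcl12, the gene of a chemokine that guides migrating cells, had 19.8, 12.9, 18.7 and 16.1 CPM in high 1 to 4, against 4.92, 10.2, 7.26 and 7.36 CPM in medium 1 to 4. For Cxcl12 the log2 fold change was 1.18 (SE 0.24, adjusted p = 0.00778), and its call was lost without high 1 or medium 1 (adjusted p of up to 0.0541). Cadps, the gene of a priming factor for dense-core vesicles, averaged 15.5 ± 3.796 CPM in the high gate and 6.31 ± 2.54 CPM in the medium gate (adjusted p = 0.0201). Ppp2r2b, which encodes a regulatory subunit of the phosphatase PP2A, averaged 17.7 ± 5.301 CPM in the high gate and 8.14 ± 0.835 CPM in the medium gate (adjusted p = 0.0228). Cadps lost its call without high 2, high 4, medium 3 or medium 4 (adjusted p of up to 0.128). Ppp2r2b lost its call without high 2, high 4, medium 1, medium 3 or medium 4 (adjusted p of up to 0.142). With 1 library left out, the log2 fold change stayed at or above 1.123 for Cadps and 0.8924 for Ppp2r2b. The gene with the smallest p of all those called higher, listed as 3010026O09Rik and named Mrnip in RefSeq, was picked after its values were seen. It had 80.8, 85.7, 69.8 and 68.2 CPM in high 1 to 4, against 31.1, 25.7, 40.6 and 30.02 CPM in medium 1 to 4. For 3010026O09Rik the log2 fold change was 1.26 (SE 0.16, adjusted p = 2.53e-05). Its means by gate were 29.99, 32.01, 31.9 and 76.1 CPM in the negative, low, medium and high gates.

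Of the 44 lists, the neural progenitor list held the most calls. Of its 20 genes tested, 8 were lower and none higher, 40% of the list beside 0.547% of all genes, and the median log2 fold change was -0.83. Hes5, the gene of a NOTCH-induced repressor that keeps neural progenitors undifferentiated, had 16.1, 16.7, 16.5 and 26.8 CPM in high 1 to 4, against 58.5, 45.4, 51.5 and 62.2 CPM in medium 1 to 4. The highest high library was well below the lowest medium library (log2 fold change -1.54, SE 0.16, adjusted p = 1.25e-06). Hes3, a related repressor gene of early neural progenitors, had 4.82, 2.78, 4.01 and 3.35 CPM in high 1 to 4, against 10.6, 9.400, 10.5 and 13.9 CPM in medium 1 to 4. For Hes3 the log2 fold change was -1.53 (SE 0.24, adjusted p = 0.000365). Pax6, the gene of a paired-box factor of intermediate and ventral progenitors, had 25.3, 22.3, 23.6 and 23.7 CPM in high 1 to 4, against 63.8, 41.7, 59.3 and 62.7 CPM in medium 1 to 4. For Pax6 the log2 fold change was -1.26 (SE 0.14, adjusted p = 3.64e-06). High libraries were tightly grouped for Pax6, and medium 2 was the lowest medium library. Rfx4, which encodes a factor of ciliogenesis and dorsal midline patterning, averaged 19.8 ± 5.69 CPM in the high gate and 37.9 ± 3.07 CPM in the medium gate (log2 fold change -0.95, adjusted p = 0.00286). Nrcam, Fabp7 and Cdh2 were also among those called lower. Nrcam, which encodes a neuronal adhesion molecule, changed by -0.94 (adjusted p = 0.00606). Fabp7, the radial glia fatty-acid-binding protein gene, changed by -1.93 at levels under 6 CPM, and its call (adjusted p = 0.0416) was lost without high 1, high 3, medium 1, medium 3 or medium 4 (adjusted p of up to 0.189). Summed over the list, the level was 433 to 581 CPM in the high gate and 692 to 782 CPM in the medium gate.

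Genes of the dorsal and intermediate neural tube, a list that shares Pax6 with the one before, did likewise: 5 of 17 were lower, none was higher, and the median was -1.03, with 16 of 17 negative. Pax7, the gene of a dorsal paired-box factor, had 3.49, 2.02, 2.62 and 7.61 CPM in high 1 to 4, against 9.84, 13.5, 9.85 and 9.35 CPM in medium 1 to 4. High 4, at 7.61 CPM, came closest to the medium gate but did not reach it (log2 fold change -1.50, SE 0.29, adjusted p = 0.00432). Zic1, the gene of a dorsal zinc-finger factor, had 3.33, 4.300, 5.704 and 5.78 CPM in high 1 to 4, against 9.25, 10.2, 15.2 and 13.03 CPM in medium 1 to 4. For Zic1 the log2 fold change was -1.33 (SE 0.23, adjusted p = 0.00119). Msx3, a dorsal homeobox gene, averaged 2.35 ± 1.202 CPM in the high gate and 7.89 ± 0.817 CPM in the medium gate (log2 fold change -1.77, adjusted p = 0.00301). Zic4 was at or under 3.46 CPM in the high and medium libraries and had 0 counts in high 2 and high 3, and its groups overlapped (adjusted p = 0.0396). The Zic4 call was lost without high 1, high 2, high 3, medium 1 or medium 3 (adjusted p of up to 0.167). Pax3, the partner of Pax7 in the dorsal tube, averaged 5.46 ± 3.02 CPM in the high gate and 11.3 ± 3.51 CPM in the medium gate, with overlap, and was not called (adjusted p = 0.128), but was called without high 3 (adjusted p = 0.0295) or medium 2 (adjusted p = 0.0341). Summed over the list, the level was 228 to 275 CPM in the high gate and 312 to 366 CPM in the medium gate.

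None of 16 neuron genes and none of 14 Hox and caudal genes tested was called in either direction. The median was -0.17 for the neuron list, which spans Tubb3, Elavl3 and others, and -0.34 for the Hox list. Hoxd3 averaged 4.57 ± 0.939 CPM in the high gate and 12.4 ± 4.68 CPM in the medium gate, with no overlap, and did not pass (log2 fold change -1.41, adjusted p = 0.0822). Hoxd3 was called lower in DESeq2 (adjusted p = 0.00275), when only the 2 gates were fitted (adjusted p = 0.00679), without robust estimation (adjusted p = 0.0356) and in the unfiltered table (adjusted p = 1.09e-06). Outside that list, 4 single genes were lower that were picked after their values were seen and stand for no group, while Cadps and Ntng1, which neurons also use, were higher. Nefl and Nefm encode neurofilaments: Nefl averaged 29.5 ± 3.49 CPM in the high gate and 53.9 ± 6.99 CPM in the medium gate (adjusted p = 0.00778) and Nefm 7.73 ± 1.84 CPM in the high gate and 15.8 ± 2.41 CPM in the medium gate (adjusted p = 0.00686). Gap43, a growth cone gene, averaged 9.28 ± 3.12 CPM in the high gate and 16.7 ± 2.85 CPM in the medium gate (adjusted p = 0.0391), and Syn1, which encodes a synaptic vesicle protein, 8.18 ± 0.537 CPM in the high gate and 14.3 ± 3.44 CPM in the medium gate (adjusted p = 0.0485). The Gap43 call was lost without high 1, high 2, high 4, medium 1, medium 2 or medium 3 (adjusted p of up to 0.189), and the Syn1 call without high 1, high 2, high 3, high 4, medium 1 or medium 4 (adjusted p of up to 0.202).

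**Figure D3:**
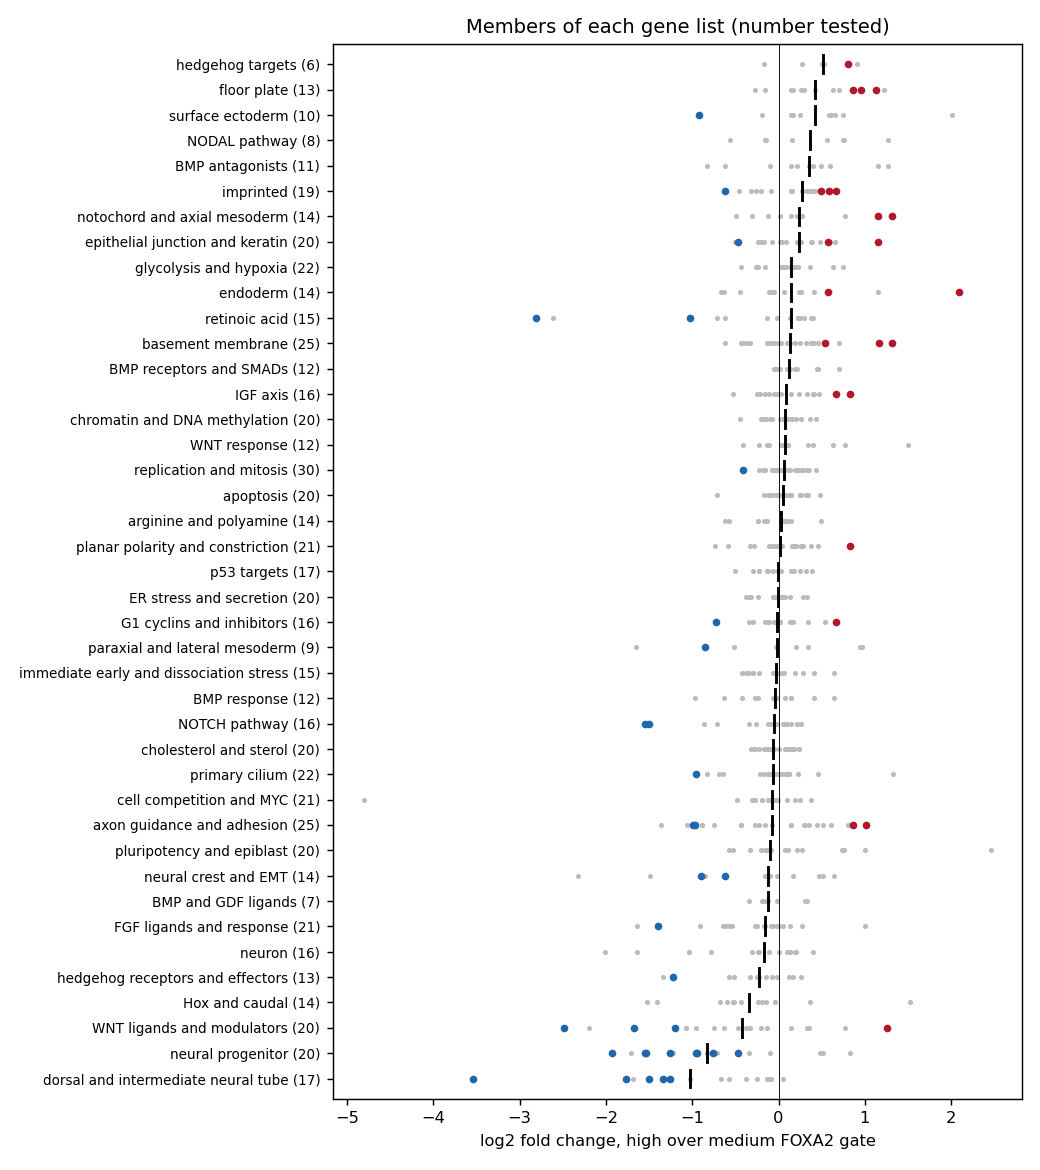
Each row is a list of genes with the number tested, ordered by its median log2 fold change of high over medium (black bar), and each point is 1 gene, red if called higher, blue if called lower and grey if not called. Hedgehog targets (median 0.52), floor plate genes (0.42, or 0.36 without Foxa2) and surface ectoderm genes (0.42) stand at the top. Neural progenitor (-0.83) and dorsal and intermediate genes (-1.03) stand at the bottom.

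NOTCH pathway genes held 2 calls among 16, both lower, beside 0.547% of all genes tested that were called lower. Hes5 was one, and Lfng, the gene of a glycosyltransferase that modifies the NOTCH receptor, was the other, with 2.83, 2.78, 5.704 and 4.57 CPM in high 1 to 4, against 10.04, 12.7, 9.16 and 13.3 CPM in medium 1 to 4. For Lfng the log2 fold change was -1.50 (SE 0.26, adjusted p = 0.00138). The target gene Hes1 was not called, at 185 ± 23.3 CPM in the high gate and 159.9 ± 10.8 CPM in the medium gate (adjusted p = 0.582). The ligand gene Jag2 averaged 4.92 ± 0.661 CPM in the high gate and 8.94 ± 1.81 CPM in the medium gate, without overlap (adjusted p = 0.164). The list's median log2 fold change was -0.05, with 7 members positive and 9 negative, so the list did not move as a whole.

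Secreted WNT ligands and modulators held 4 calls among 20, 1 higher and 3 lower. Sfrp5 and Sfrp2 encode secreted frizzled-related proteins, which bind WNT ligands. Sfrp5 had 9.31, 4.81, 8.17 and 7.305 CPM in high 1 to 4, against 31.1, 16.2, 24.7 and 25.1 CPM in medium 1 to 4. For Sfrp5 the log2 fold change was -1.68 (SE 0.31, adjusted p = 0.00778). Sfrp2 had 28.3, 26.8, 32.4 and 26.8 CPM in high 1 to 4, against 70.5, 56.7, 57.2 and 79.7 CPM in medium 1 to 4. For Sfrp2 the log2 fold change was -1.20 (SE 0.14, adjusted p = 4.44e-06). For both genes every high library was below every medium library. Wnt1, the gene of a dorsal midline ligand, was scarce, with 0.665, 0.506, 0.617 and 0.304 CPM in high 1 to 4, against 1.18, 4.29, 2.77 and 4.25 CPM in medium 1 to 4. For Wnt1 the log2 fold change was -2.48 (SE 0.51, adjusted p = 0.00778). Dkk3, the gene of a Dickkopf-family protein, was the one that rose, with 30.6, 18.7, 19.7 and 21.00 CPM in high 1 to 4, against 9.05, 9.89, 8.64 and 10.2 CPM in medium 1 to 4. For Dkk3 the log2 fold change was 1.26 (SE 0.23, adjusted p = 0.00323). Dkk1, which encodes the WNT co-receptor inhibitor of that family, averaged 5.22 ± 1.701 CPM in the high gate and 1.81 ± 0.621 CPM in the medium gate, without overlap and not called (adjusted p = 0.197). Summed over the list, the level was 153 to 174 CPM in the high gate and 228 to 280 CPM in the medium gate.

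Of 12 WNT response genes none was called. Sp5, a direct WNT target, had 94.95, 88.5, 113 and 77.3 CPM in high 1 to 4, against 62.6, 63.2, 48.2 and 67.5 CPM in medium 1 to 4, without overlap (log2 fold change 0.64, adjusted p = 0.212). Sp5 was called higher when only the 2 gates were fitted (adjusted p = 0.0206) and in the unfiltered table (adjusted p = 0.00264). Lef1, the gene of a transcription factor of the pathway, averaged 23.99 ± 3.54 CPM in the high gate and 23.3 ± 7.53 CPM in the medium gate (adjusted p = 0.984). Outside the list, 2 WNT genes were picked after their values were seen. Wls, which encodes the carrier that takes WNT proteins to the cell surface, was lower at 67.1 ± 4.43 CPM in the high gate and 103 ± 10.1 CPM in the medium gate (adjusted p = 0.00367), and the receptor gene Fzd2 was higher at 223 ± 13.2 CPM in the high gate and 152 ± 21.9 CPM in the medium gate (adjusted p = 0.0132). The Fzd2 call was lost without high 1, high 2, high 4, medium 3 or medium 4 (adjusted p of up to 0.0946).

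BMP signalling is named in the title of the study, and no gene of its lists was called in the edgeR test by gate over all 16 libraries. With a replicate block added to that fit, Fst (adjusted p = 0.00736) and Msx1 (adjusted p = 0.0442) were called. Smoc1, described above as acting on BMP signalling in the frog, was called higher but was counted with the matrix genes and not in the BMP lists. The lists held 7 ligands, 11 antagonists, 12 receptors and SMADs and 12 response genes that could be tested. Bmp4 had 23.8, 40.7, 29.4 and 39.6 CPM in high 1 to 4, against 27.8, 28.5, 28.3 and 22.7 CPM in medium 1 to 4, with overlap (log2 fold change 0.30, SE 0.20, adjusted p = 0.73). Bmp7 had 67.02, 89.03, 67.8 and 68.8 CPM in high 1 to 4, against 68.7, 82.5, 65.2 and 79.7 CPM in medium 1 to 4 (log2 fold change -0.02, SE 0.13, adjusted p = 0.991). The response genes Id1, at 78.5 ± 17.1 CPM in the high gate and 74.3 ± 13.6 CPM in the medium gate, and Id3, at 412 ± 33.9 CPM in the high gate and 485 ± 86.7 CPM in the medium gate, encode inhibitors of helix-loop-helix factors, and both overlapped between gates (adjusted p = 0.967 for Id1 and 0.684 for Id3). Msx1, a homeobox gene induced by BMP, had 95.8, 59.4, 88.9 and 86.7 CPM in high 1 to 4, against 125, 99.4, 96.3 and 125 CPM in medium 1 to 4, which did not overlap but did not pass (log2 fold change -0.43, adjusted p = 0.251). Among antagonists, the activin and BMP binder gene Fst averaged 12.5 ± 2.68 CPM in the high gate and 5.19 ± 1.68 CPM in the medium gate, without overlap (log2 fold change 1.27, adjusted p = 0.0896). Fst was called in DESeq2 (adjusted p = 0.0149), when only the 2 gates were fitted (adjusted p = 0.0146) and in the unfiltered table (adjusted p = 0.00021). The chordin gene Chrd averaged 7.09 ± 2.54 CPM in the high gate and 3.097 ± 1.71 CPM in the medium gate (adjusted p = 0.342). Nog, the noggin gene, had 3 counts in the high gate and 6 in the medium gate. Median log2 fold changes were -0.12 for the ligands, 0.35 for the antagonists and -0.04 for the response genes. The NODAL pathway list of 8 genes held no call either.

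RA genes held 2 calls among 15, both lower, in cells that had all been given RA. Crabp1, the gene of a cytoplasmic RA-binding protein, had 2290.0, 2662, 2691 and 3362 CPM in high 1 to 4, against 4915, 6699, 5466 and 5261 CPM in medium 1 to 4. The groups were far apart (log2 fold change -1.02, SE 0.13, adjusted p = 0.000145). Rxrg, a retinoid X receptor gene, had 0.499, 0.759, 0.154 and 0 CPM in high 1 to 4, against 2.36, 1.15, 2.94 and 3.97 CPM in medium 1 to 4. For Rxrg the log2 fold change was -2.81 (SE 0.62, adjusted p = 0.0161), and its call was lost without high 3, high 4 or medium 4 (adjusted p of up to 0.0986). The list's median log2 fold change was 0.14, with 8 members positive and 7 negative.

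FGF ligands and response genes held 1 call among 21, Fgf15, the gene of a secreted FGF of the neural tube that is a known hedgehog target elsewhere in the brain. Fgf15 had 2.66, 0.759, 2.93 and 4.57 CPM in high 1 to 4, against 7.68, 6.43, 7.26 and 7.08 CPM in medium 1 to 4. For Fgf15 the log2 fold change was -1.39 (SE 0.28, adjusted p = 0.00626). Fgf3 averaged 18.4 ± 5.16 CPM in the high gate and 28.3 ± 3.301 CPM in the medium gate (adjusted p = 0.113) and was called lower without high 3 (adjusted p = 0.0152) or medium 2 (adjusted p = 0.0365).

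Axon guidance and adhesion genes moved in both directions, 2 higher and 2 lower of 25. Besides Ntn1, Ntng1 rose, the gene of a membrane-anchored netrin, with 45.9, 57.9, 49.8 and 44.4 CPM in high 1 to 4, against 28.7, 25.7, 20.4 and 23.5 CPM in medium 1 to 4. For Ntng1 the log2 fold change was 1.01 (SE 0.20, adjusted p = 0.00542). Robo2, the gene of a SLIT receptor, averaged 6.97 ± 1.48 CPM in the high gate and 14.1 ± 2.76 CPM in the medium gate (log2 fold change -0.99, adjusted p = 0.0208), and Epha7, an ephrin receptor gene, 9.52 ± 1.65 CPM in the high gate and 18.7 ± 2.79 CPM in the medium gate (log2 fold change -0.96, adjusted p = 0.0127). The Robo2 call was lost without high 1, high 2, high 4, medium 3 or medium 4 (adjusted p of up to 0.103), and the Epha7 call without high 1 or high 4 (adjusted p of up to 0.0752). Kirrel3, the gene of a synaptic adhesion molecule, had 9.98, 7.84, 8.79 and 9.13 CPM in high 1 to 4, against 19.5, 22.3, 25.9 and 26.1 CPM in medium 1 to 4. For Kirrel3 the log2 fold change was -1.39 (SE 0.20, adjusted p = 0.000145). Adgrl3, which encodes the adhesion receptor latrophilin-3, averaged 12.7 ± 1.45 CPM in the high gate and 29.2 ± 5.69 CPM in the medium gate (log2 fold change -1.21, adjusted p = 0.000145).

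Growth and metabolism genes gave few calls. Folr1, the gene of the folate receptor needed for neural tube closure in the mouse, had 19.5, 20.7, 24.5 and 25.6 CPM in high 1 to 4, against 68.7, 45.7, 73.8 and 60.3 CPM in medium 1 to 4. For Folr1 the log2 fold change was -1.46 (SE 0.15, adjusted p = 1.37e-06). The 2 groups were well separated, and medium 2 was the lowest medium library. Cbs, the gene of cystathionine beta-synthase, averaged 5.59 ± 1.42 CPM in the high gate and 13.4 ± 4.03 CPM in the medium gate (log2 fold change -1.29, adjusted p = 0.00753), a call lost without medium 3 (adjusted p = 0.0584) and when thinned to the smallest total (adjusted p = 0.421). Of 16 genes of the IGF axis 2 rose, Igf1 and Igfbp4, a growth factor gene and the gene of a protein that binds it. Igf1 had 50.6, 38.4, 39.00 and 42.9 CPM in high 1 to 4, against 24.4, 29.03, 24.03 and 18.7 CPM in medium 1 to 4. For Igf1 the log2 fold change was 0.83 (SE 0.20, adjusted p = 0.0396). Igfbp4 had 134, 146, 134 and 191 CPM in high 1 to 4, against 97.03, 123, 78.3 and 82.1 CPM in medium 1 to 4. For Igfbp4 the log2 fold change was 0.67 (SE 0.14, adjusted p = 0.00854). Groups did not overlap for either. The Igf1 call was lost without high 1, high 2, high 3, high 4, medium 1, medium 3 or medium 4 (adjusted p of up to 0.204), and the Igfbp4 call without high 4, medium 3 or medium 4 (adjusted p of up to 0.0837). Of 14 arginine and polyamine genes none was called, and Arg1, which encodes arginase, averaged 67.6 ± 7.88 CPM in the high gate and 48.1 ± 10.6 CPM in the medium gate (SD, n = 4 each), without overlap (adjusted p = 0.362).

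Among 16 G1 cyclins and inhibitors, 1 rose and 1 fell. Cdkn1c, the gene of the CDK inhibitor p57, had 719, 701, 658 and 781 CPM in high 1 to 4, against 478, 578, 361 and 379.7 CPM in medium 1 to 4. For Cdkn1c the log2 fold change was 0.67 (SE 0.16, adjusted p = 0.0416), a call that was lost without high 1, high 2, high 3, high 4, medium 1, medium 3 or medium 4 (adjusted p of up to 0.184). Ccnd2, the gene of cyclin D2, had 257, 260.3, 334 and 345 CPM in high 1 to 4, against 465, 455, 568 and 479.9 CPM in medium 1 to 4. For Ccnd2 the log2 fold change was -0.72 (SE 0.11, adjusted p = 0.000205). Neither overlapped, and the cyclin D1 gene Ccnd1, at 263 ± 9.92 CPM in the high gate and 207 ± 27.8 CPM in the medium gate, did not either but was not called (adjusted p = 0.161, and 0.0246 without medium 2). Of 30 replication and mitosis genes, 1 was lower, the uracil-DNA glycosylase gene Ung, at 137 ± 10.9 CPM in the high gate and 182 ± 5.84 CPM in the medium gate (adjusted p = 0.0407), and it lost its call without high 1, high 2, high 3, high 4, medium 1, medium 3 or medium 4 (adjusted p of up to 0.222). The lists for p53 targets, cell competition and MYC, apoptosis, glycolysis and hypoxia, cholesterol, endoplasmic reticulum stress, immediate early genes and chromatin held 17, 21, 20, 22, 20, 20, 15 and 20 tested genes and no call.

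Of 19 imprinted genes, expressed from 1 parental copy, 3 rose and 1 fell: Cdkn1c, Nnat and Grb10 were higher and Mest was lower. Nnat, which encodes the membrane proteolipid neuronatin, had 397, 451, 392 and 429 CPM in high 1 to 4, against 283, 323, 243 and 262 CPM in medium 1 to 4. For Nnat the log2 fold change was 0.59 (SE 0.11, adjusted p = 0.00266). Mest, the gene of a hydrolase-fold protein of growing mesoderm, had 470.1, 559, 533 and 548 CPM in high 1 to 4, against 776, 958, 703 and 812 CPM in medium 1 to 4. For Mest the log2 fold change was -0.62 (SE 0.10, adjusted p = 0.000333). All 8 libraries separated by gate for both genes. Grb10, which encodes an adaptor that dampens insulin and IGF receptor signalling, averaged 86.7 ± 12.5 CPM in the high gate and 61.5 ± 6.301 CPM in the medium gate (adjusted p = 0.0447), and the call was lost without high 1, high 2, high 3, medium 1, medium 3 or medium 4 (adjusted p of up to 0.262).

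The remaining lists held few calls. Of 9 mesoderm genes Meox1, a somite homeobox gene, was lower, with 23.8, 18.5, 29.3 and 21.9 CPM in high 1 to 4, against 44.7, 35.8, 50.3 and 40.4 CPM in medium 1 to 4. For Meox1 the log2 fold change was -0.86 (SE 0.15, adjusted p = 0.00185). Of 14 neural crest and EMT genes 2 were lower: Cdh6, the gene of a cadherin of the dorsal neural tube and crest, at 9.28 ± 1.62 CPM in the high gate and 17.2 ± 1.34 CPM in the medium gate (adjusted p = 0.00861), and Zeb2, the gene of a zinc-finger repressor, at 16.6 ± 2.26 CPM in the high gate and 25.7 ± 2.86 CPM in the medium gate (adjusted p = 0.0478). The Cdh6 call was lost without high 3 (adjusted p = 0.0539) and when thinned (adjusted p = 0.387), and the Zeb2 call without high 1, high 2, high 3, high 4, medium 1 or medium 4 (adjusted p of up to 0.225). Of 21 planar polarity and constriction genes Kif26b, the gene of a kinesin-like protein of WNT5A signalling, was higher, at 30.96 ± 4.26 CPM in the high gate and 17.5 ± 2.96 CPM in the medium gate (adjusted p = 0.0396), a call lost without high 1, high 2, high 3, high 4, medium 1, medium 3 or medium 4 (adjusted p of up to 0.194). Of 22 primary cilium genes Rfx4 was the one called. None of 20 pluripotency and epiblast genes was called, and their median was -0.09. Palm3, which encodes a paralemmin of the inner membrane face, averaged 18.9 ± 1.26 CPM in the high gate and 39.7 ± 3.91 CPM in the medium gate (adjusted p = 0.000333). Arid3c, the gene of an ARID-domain DNA-binding protein, averaged 9.72 ± 4.46 CPM in the high gate and 19.98 ± 5.63 CPM in the medium gate, with overlap (adjusted p = 0.0461), and lost its call without high 1, high 2, high 3, medium 1, medium 3 or medium 4 (adjusted p of up to 0.199).

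The step from medium to high was then set beside the step before it, from low to medium, in which 68 genes were higher (0.49%) and 31 lower (0.223%), 0.713% of those tested in all. The test of the difference between both steps, which takes into account that they share the medium libraries, called none of the 13891 genes in edgeR, where 413 had an unadjusted p under 0.05, and none in DESeq2, where 446 did. The smallest adjusted p was 0.55 in edgeR and 0.075 in DESeq2. Leaving out medium 2 gave 3 calls, Folr1 (step difference -1.28 on the log2 scale, adjusted p = 0.0408), Pla2g7 (-1.35, adjusted p = 0.0199) and Ifitm1 (-0.97, adjusted p = 0.0199), the last 2 named only for these calls. The unfiltered table gave 12 calls, among them Folr1 (-1.05, adjusted p = 0.0232), Igf1 (-1.42, adjusted p = 0.0338) and 3010026O09Rik (1.24, adjusted p = 0.0204). Side by side, Foxa2 changed by 1.13 from medium to high and by 2.11 from low to medium on the log2 scale, Igf1 by 0.83 and 2.24, and Nkx2-9 by 1.03 and 1.22. Bmp4 had 0.30 for the last step and 1.27 for the one before (adjusted p = 0.73 and 0.000695), and Sox17 had 0.27 and 1.09 (adjusted p = 0.741 and 0.00191). Folr1 had -1.46 and -0.44 (adjusted p = 1.37e-06 and 0.247), and Kirrel3 -1.39 and -0.15 (adjusted p = 0.000145 and 0.982). In the edgeR test over all 16 libraries and 13891 genes, the step difference had adjusted p of 0.82 for Folr1, 0.85 for Igf1 and 0.752 for 3010026O09Rik. Their calls therefore hang on the alternative used. A call in one step and not in the other is not shown to be a difference between them.

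The first step, low against negative, shares no library with high against medium and so gives separate values for the same genes. In it 204 genes were higher and 318 lower, 1.47% and 2.29% of those tested and 3.76% in all. Of the 51 genes that rose from medium to high, 14 (27.5%) were also higher in the low gate than in the negative gate, 2 were lower and 35 were called in neither direction. Those 14 are 6.86% of the 204 genes higher in low. Smoc2, Ntng1, Nkx2-9, Foxa2, Kif26b and Cldn6 are among them. The 2 that were lower in low were Upp1, the uridine phosphorylase gene, and Nfkbia, which encodes an inhibitor of NF-kappaB. Upp1 averaged 55.6, 13.2, 12.5 and 21.8 CPM in the negative, low, medium and high gates, and Nfkbia 74.01, 53.2, 61.6 and 90.2 CPM in the negative, low, medium and high gates. Both means were thus lower in the 2 middle gates than at either end. The Upp1 call between high and medium was lost without high 1, high 3, medium 1 or medium 2 (adjusted p of up to 0.172), and that of Nfkbia without high 1 (adjusted p = 0.0526).

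Most genes that fell at the last step were not called at the first, and more of the rest were called higher than lower there. Of the 76, 5 (6.58%) were also lower in low than in negative, namely Hes3, Tfap2c, Fgf15, Fez1 and Ung, and 61 (80.3%) were called in neither direction. Another 10 (13.2%), or 4.9% of the 204 genes higher in low, had been higher in low than in negative: Kirrel3, 1700011H14Rik, Igfbpl1, Meox1, Scrn1, Wls, Cbs, Cdh6, Cp and Spsb4. Upp1, Nfkbia, Fez1, 1700011H14Rik, Igfbpl1, Scrn1, Cp and Spsb4 are named for these calls, after their values were seen. Meox1 averaged 15.5, 42.2, 42.8 and 23.4 CPM in the negative, low, medium and high gates, with a log2 fold change of 1.45 at the first step (adjusted p = 2.27e-07) and -0.86 at the last. Igfbpl1, an IGF-binding-protein-like gene, averaged 34.8, 68.4, 68.2 and 36.9 CPM in the negative, low, medium and high gates (first step 0.97, adjusted p = 6.66e-05, and last step -0.89, adjusted p = 0.0011). Kirrel3 averaged 13.3, 26.2, 23.4 and 8.93 CPM in the negative, low, medium and high gates. These 3 genes had their highest means in the low or medium gate. Hes5, whose mean was also highest in the low gate, was 92.9, 111, 54.4 and 19.03 CPM in the negative, low, medium and high gates, and Pax6 95.4, 87.1, 56.9 and 23.7 CPM in the negative, low, medium and high gates, with no call at the first step for either gene (adjusted p = 0.427 for Hes5 and 0.728 for Pax6). Over all 76 genes the median log2 fold change was -1.01 at the last step and 0.10 at the first, and over the 51 it was 0.81 and 0.33.

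**Figure D4:**
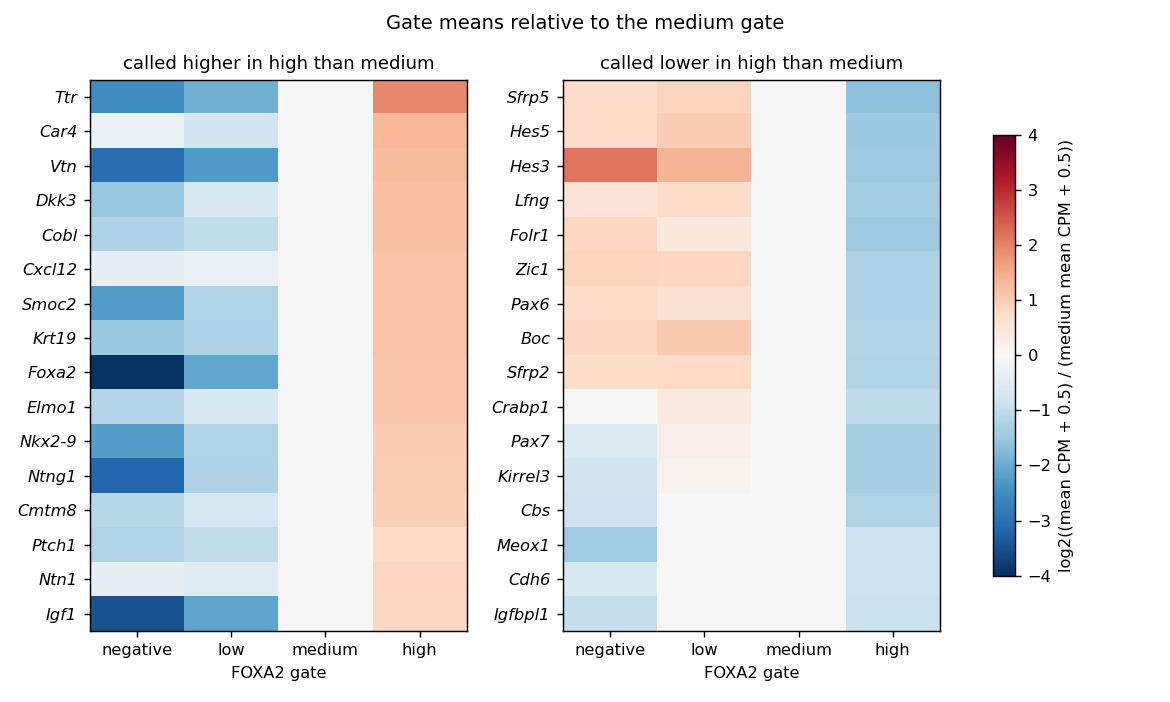
Colour shows the log2 ratio of each gate's mean CPM to the medium gate's (0.5 added to each mean) for 16 genes called higher, on the left, and 16 called lower, on the right, over the negative, low, medium and high gates. Foxa2, Vtn and Igf1 are higher at each gate than at the one before, Hes5 and Pax6 are lower in medium than in low and lower again in high, and Meox1, Cdh6 and Igfbpl1 are lower at both ends than in the middle.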

How the data were processed

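The deposited values are raw read counts per gene in 16 BRB-seq libraries; per the submitters' processing notes, reads were handled with cutadapt 1.18 and STARsolo 2.7.9a on GRCm38, and DESeq2 1.42.0 was used. How reads were filtered, and whether strand was used, is not given in the sources used here, so reads of overlapping genes may be shared.

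Here the counts were fitted in edgeR 4.0.16 (R 4.3.3): 4 gates, 16 libraries, filterByExpr (13891 of 35976 genes kept), TMM scaling (factors 0.9699 to 1.054), the robust quasi-likelihood F test and Benjamini-Hochberg adjustment at 0.05. CPM divide by kept-gene counts and the TMM factor; 3 counts are 0.301 to 0.918 CPM. Count-based precision is counting error only and is contained in the fitted spread. On simulated high against medium counts (13891 genes), the test called 66 of 100 genes with a 2-fold change, 89 of 100 with a 4-fold change and 11 of 13691 left as they were. The simulated counts had the fitted spread of each gene and no library that stood apart as medium 2 did. The changed genes were drawn only from genes above a minimum mean CPM, and the simulated low and negative gates were set at the medium level. The shares recovered may therefore not hold for the real counts, scarce genes among them. Replicate counts differed beyond sampling noise in every pair (smallest chi-square per degree of freedom 4.31 over 24 pairs), so no library was a copy of another. Pairs with medium 2 gave 17.6, 19.6 and 19.8, against 5.23, 5.35 and 7.18 for the other medium pairs and 4.31 to 5.74 for high pairs. Pairs with low 1 (14.1 to 15.6) and negative 1 (22 to 36.9) were wide too. All libraries were kept, and the smallest value does not bear on whether one that stood apart should be.

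Named genes were the 15 largest called changes per direction (a mean from 10 CPM upwards in one gate, same sign in 4 same-numbered comparisons, gene models without a name left out), 40 listed genes and up to 4 members of each list. Some of them are not reported here. The members, the 44 lists (769 genes) and this rule were chosen with earlier results of these data known. Promoters and positions are from RefSeq, GRCm38.p6; 32501 gene symbols of the table were found there. Alternatives tried were another scaling (RLE), no filter, a replicate block, thinning to the smallest total, a fit of the 2 gates only (3 for the step difference), leaving out each library, leaving out low 1, medium 2 and high 2 together, edgeR without robust estimation (added after seeing the data) and DESeq2 1.42.0 on the same counts.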

Additional observations from a re-analysis of the deposited data

Results flagged for a closer look

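In 233 groups of 4 libraries, 11 held 1 library far from the other 3, by a gap above the 95% critical value of Dixon's test. Chance flags about 1 in 20 groups, a share close to the one found here, so the flags are listed as a description only. In the medium gate, medium 2 stood apart for Ptch1 at 99.1 CPM (53.1 to 57.8 in the other 3), for Krt7 at 41.4 CPM (16.1 to 20), for Itga6 at 29.8 CPM (14 to 16.4) and for Pax7 at 13.5 CPM (9.35 to 9.85). Medium 4 stood apart for Bmp4 at 22.7 CPM (27.8 to 28.5). In the high gate, high 4 stood apart for Hes5 at 26.8 CPM (16.1 to 16.7) and for Ntn1 at 36.5 CPM (24.7 to 26.1). High 3 stood apart on the low side for Smoc1 at 184 CPM (199 to 201), for Cdh1 at 70.3 CPM (75.8 to 76.9) and for 9030622O22Rik at 41.5 CPM (47.3 to 48.1). High 2 stood apart for Bmp7 at 89 CPM (67 to 68.8).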

How the results depend on the processing

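The number of genes called higher and lower, 51 and 76, was 50 and 76 with RLE scaling and 44 and 72 without robust estimation. It was 58 and 72 when only the 2 gates were fitted, 87 and 135 in the unfiltered table, 31 and 46 when all libraries were thinned to the smallest total, 83 and 100 in DESeq2, and 111 and 96 without low 1, medium 2 and high 2 together. Leaving out 1 library at a time gave 26 to 112 genes higher and 46 to 121 lower. The highest counts came without medium 2, and leaving out any other library gave at most 37 higher and 69 lower. The step difference had 0 calls except in the unfiltered table, which gave 12, and between 0 and 3 when 1 library was left out. Same-numbered libraries did not deviate together (correlations of -0.0328 to 0.0431, and 0 of 8 correlated best with its own number). Whether a number marks a shared culture or sort is not given in the labels, and these correlations over 4 libraries per gate cannot settle it. With a replicate block the counts were 71 and 104, and 0 for the step difference. The block called 9 named genes that were otherwise not called, among them Msx1 (adjusted p = 0.0442), Fst, Hoxd3 and Spon1.

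Of 75 named genes that were called, 36 kept their call in all 16 alternatives, 39 lost it in at least 1, and none changed sign. Of 43 named genes that were not called, 16 were called in some alternative, and 3 with changes near 0 changed sign. Bmp7 turned positive without high 1 (0.020), high 3 (0.0083), high 4 (0.0023), medium 2 (0.025) or medium 4 (0.020), with a range over single libraries left out of -0.13 to 0.025, and Id1 turned negative without high 4 (-0.071) or medium 3 (-0.061), with a range of -0.071 to 0.17. Lef1 turned negative when thinned (-0.10) and without high 2 (-0.056), medium 3 (-0.086) or medium 4 (-0.041), and reached 0.28 without medium 2. The cause was not tested.

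Depth limits the scarce genes: with the smallest library at 3268948 counts, 3 counts are 0.918 CPM, and Shh, Nog and Nkx2-2 had too few counts to be tested.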
